A study of Mus musculus with 6 samples.

Results

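The TGF-beta ligands, their receptors and the latent TGF-beta binding proteins (LTBPs) were described in cultured mouse aortic smooth muscle cells with and without LRRC8A, a protein without which volume-regulated anion channels do not work. The 10 genes were chosen by symbol, and all 10 were among the 12389 genes with values in each library. They are the ligands Tgfb1, Tgfb2 and Tgfb3, the receptors Tgfbr1, Tgfbr2 and Tgfbr3, and the binding proteins Ltbp1, Ltbp2, Ltbp3 and Ltbp4. Of the 6 libraries, 3 came from wild-type mice (WT) and 3 from mice with a knockout of LRRC8A restricted to smooth muscle (KO), all untreated explant cultures from thoracic aorta at passage 6 or below. The submitters call the replicates independent and biological. The genotype field reads wild type for every sample, so the groups rest on the sample titles. The sources used here do not state the strain, age and sex of the mice or the Cre driver of the knockout.

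TGF-beta is made as a precursor whose propeptide stays wrapped around the mature growth factor and keeps it latent. An LTBP is disulfide-bonded to the propeptide in the cell and anchors the latent complex to fibrillin and fibronectin in the matrix, from which integrins, thrombospondin or proteases release it. The freed ligand binds the type II receptor, which activates the type I receptor kinase, and the type III receptor betaglycan helps to present ligand. In the aortic wall this pathway drives matrix synthesis and contractile gene expression in smooth muscle, and inherited defects in several of its genes cause aortic aneurysm.

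By whole-gene coordinates on GRCm38, the ligand genes are Tgfb1 (ENSMUSG00000002603) at chr7:25687002-25705077, Tgfb2 (ENSMUSG00000039239) at chr1:186622792-186705989 and Tgfb3 (ENSMUSG00000021253) at chr12:86056745-86079041. The receptor genes are Tgfbr1 (ENSMUSG00000007613) at chr4:47353222-47414931, Tgfbr2 (ENSMUSG00000032440) at chr9:116084293-116175360 and Tgfbr3 (ENSMUSG00000029287) at chr5:107106570-107289629. The LTBP genes are Ltbp1 (ENSMUSG00000001870) at chr17:75005568-75392512, Ltbp2 (ENSMUSG00000002020) at chr12:84783212-84876532, Ltbp3 (ENSMUSG00000024940) at chr19:5740904-5758532 and Ltbp4 (ENSMUSG00000040488) at chr7:27305136-27337692.

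Promoter windows from RefSeq (GRCm38.p6, 250 bases before to 50 after a start site) were found for 8 of the 10 genes. Those of Tgfb1, Tgfb2 and Ltbp4 are shown, because the ratios of Tgfb2 to the other ligands did not overlap between genotypes and Ltbp4 had the largest difference in level. Capitals mark matches on either strand. The motif GGGCGG is the GC box bound by SP1, the motif TATAAA is the TATA box, and the motif CAGACA is the core of the CAGA box bound by SMAD proteins.
Tgfb1, chr7:25686752-25687051, plus strand: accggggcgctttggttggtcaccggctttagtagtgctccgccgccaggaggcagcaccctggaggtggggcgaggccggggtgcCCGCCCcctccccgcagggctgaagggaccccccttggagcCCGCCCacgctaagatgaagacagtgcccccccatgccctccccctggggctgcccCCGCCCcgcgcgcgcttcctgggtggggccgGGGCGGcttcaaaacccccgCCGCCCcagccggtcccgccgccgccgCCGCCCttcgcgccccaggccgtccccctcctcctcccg
Tgfb2, chr1:186705940-186706239, minus strand: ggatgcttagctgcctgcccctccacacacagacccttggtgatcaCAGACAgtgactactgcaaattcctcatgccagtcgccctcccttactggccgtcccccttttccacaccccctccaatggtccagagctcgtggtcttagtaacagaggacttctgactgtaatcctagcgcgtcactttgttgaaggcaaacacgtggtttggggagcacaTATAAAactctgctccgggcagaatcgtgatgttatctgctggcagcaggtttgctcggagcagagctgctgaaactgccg
Ltbp4, first of 3 windows, chr7:27337563-27337862, minus strand: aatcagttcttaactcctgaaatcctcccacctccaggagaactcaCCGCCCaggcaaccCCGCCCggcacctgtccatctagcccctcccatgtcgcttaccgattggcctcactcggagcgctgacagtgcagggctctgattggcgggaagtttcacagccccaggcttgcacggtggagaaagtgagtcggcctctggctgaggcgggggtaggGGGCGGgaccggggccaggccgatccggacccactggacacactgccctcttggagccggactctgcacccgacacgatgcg
The Tgfb1 window holds 6 GC boxes and no TATA box at a GC content of 77%. Tgfb2 has the opposite layout, with a single TATA box that begins 31 bases before the start site, a single CAGA core and no GC box at a GC content of 54.3%. The Ltbp4 window shown holds 3 GC boxes and neither of the other motifs at a GC content of 64.3%. Ltbp4 windows 2 and 3, which overlap each other and are not shown, hold 7 and 9 GC boxes at 80.3% and 81.3%. Among 32841 windows of the same length, 35.7% hold a GC box, 13.6% a TATA box and 21% a CAGA core. A match is a string of letters and not a measured binding site.

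Values are reads scaled for each library by the authors, and estimated depth was 31100000 to 47900000 reads per library. Lrrc8a, the targeted gene, measured 2578, 2194 and 1221 in the WT libraries and 868, 672 and 506 in the KO libraries, in replicate order as are all sets of 3 values. Every KO library lay below every WT library, the direction the titles give. The log2 fold change was -1.51 (SE 0.34) with an adjusted p of 0.999 in limma, and the authors' deposited table has a log2 ratio of -1.55 with a false discovery rate (FDR) of 0.0196. The smooth muscle label was checked with 10 markers, of which 7 have values here and 3 (Mylk, Myocd and Des) were not analysed here. Their summed level was 16629, 25353 and 205292 in WT and 31567, 32575 and 106114 in KO, a sum that Acta2 and Tagln dominate. Both replicate 3 libraries were above the other 4 for 3 of the 7 markers, Acta2 (10651 to 130984), Tagln (2240 to 58393) and Cnn1 (124 to 8583). The other 4 markers, Myh11, Lmod1, Smtn and Synpo2, were lower in KO in every same-numbered pair, as were 15% of all genes. Myh11 had 90.1, 152 and 1656 in WT and 41.7, 20.8 and 96.8 in KO. The median log2 fold change of the 7 was -0.78, and none passed in limma. Fibroblast markers, 6 of 6 with values, summed to 18622 to 37062 in WT and 16904 to 41951 in KO. Epithelial and mesothelial markers, 5 of 8, summed to 5625 to 11590 in WT and 1104 to 6157 in KO, and leukocyte markers, 4 of 6, to 1995 to 2616 and 834 to 1676. Of the endothelial markers only Kdr has values here, 42.7 to 433 in WT and 21.3 to 423 in KO.

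Levels were compared between genes per kb of annotated exon. By mean level, Ltbp1, Ltbp3 and Ltbp2 came first among the 10 genes at 2303, 2192 and 1682 scaled reads per kb over the 6 libraries, which places them in the top 6.41%, 6.80% and 9.20% of genes with a known length. The type II receptor gene Tgfbr2 (1117) and the ligand gene Tgfb3 (990) came next, in the top 14.2% and 16.1%. Tgfbr3 had 562, Ltbp4 362, Tgfb2 308, Tgfb1 303 and Tgfbr1 198 scaled reads per kb. The ranges over 6 libraries overlapped for each of the 9 neighbouring pairs in this order. Single libraries set some of the places. Ltbp1 exceeded Ltbp3 in only 1 of 6 libraries (KO replicate 1), Ltbp2 exceeded Tgfbr2 in 2 of 6 and Ltbp4 exceeded Tgfb2 in 3 of 6, while Tgfb1 exceeded Tgfbr1 in 6 of 6. Without KO replicate 1 the mean of Ltbp1 was 1773, below the 2174 of Ltbp3, and without KO replicate 3 that of Ltbp2 was 1139, below the 1214 of Tgfbr2. Summed per kb, LTBP transcripts reached 9040, 6258 and 2625 in WT and 9284, 4496 and 7527 in KO, while the ligand sums were 1940, 1645 and 943 for WT and 2737, 1381 and 959 for KO. Without Ltbp2, which does not bind latent TGF-beta, the other LTBPs summed to 2.23 to 3.84 times the ligands in the 6 libraries. With the longest transcript as the length, the value of Tgfb1 became 594 in place of 303 per kb, above Ltbp4 and Tgfb2, while Ltbp1, Ltbp3 and Ltbp2 kept the top 3 places.

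**Figure D1:**
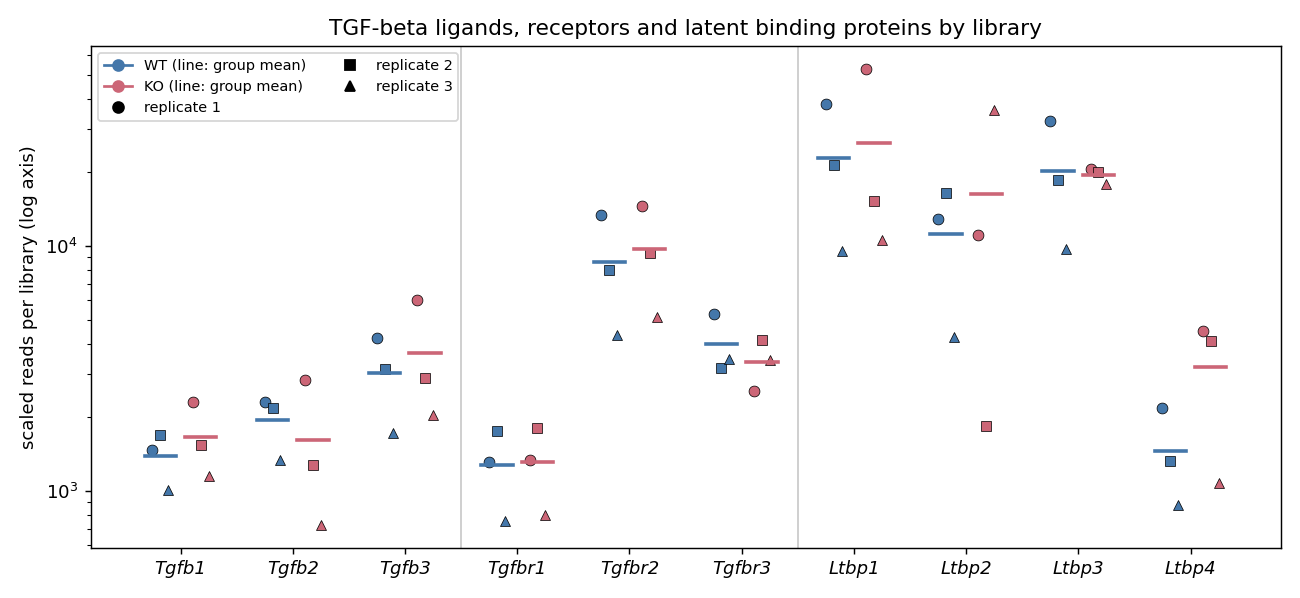
Scaled reads (log axis) of the 10 genes in each library, WT in blue and KO in red, with the replicate number as the symbol and a line at each group mean (n = 3). The WT and KO points overlap for all 10 genes, and triangles (replicate 3) are the lowest points of both groups for most of them.

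None of the 10 genes differed between KO and WT at an adjusted p under 0.05 in limma, where 0% of the 12363 genes tested passed. None of the 10 reached an unadjusted p under 0.05 either, against 3.62% of all genes, and none had KO and WT libraries that did not overlap, against 8.43%. Their median log2 fold change was 0.08, with 7 above 0 and 3 below, beside 0.00 over all genes. The median absolute log2 fold change was 0.21 in both the 10 genes and all genes. The replicates spread widely, so the 95% intervals below show which sizes of difference these libraries leave possible.

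Among the ligands, Tgfb1, the form most widely made in the body, measured 1473, 1688 and 1012 scaled reads in WT and 2305, 1538 and 1153 in KO. Only KO replicate 1 lay outside the WT range. The log2 fold change was 0.23 (SE 0.32, 95% interval -0.52 to 0.98), and KO was higher in 2 of 3 same-numbered pairs. Tgfb3, the ligand gene with the highest level per length here, had 4226, 3162 and 1726 in WT and 6048, 2894 and 2044 in KO. It followed Tgfb1, highest in KO replicate 1 and lowest in the replicate 3 libraries. Its log2 fold change was 0.21 (SE 0.48, interval -0.93 to 1.35). Tgfb2, a ligand that depends more than the others on betaglycan for receptor binding, had 2310, 2176 and 1343 in WT and 2853, 1279 and 728 in KO. KO held both the highest and the lowest library. The log2 fold change was -0.45 (SE 0.50, interval -1.64 to 0.74), and without KO replicate 3 it was 0.016.

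The ratios of Tgfb2 to the other ligands did not overlap between genotypes. There were 0.638, 0.776 and 0.753 reads of Tgfb1 for each read of Tgfb2 in WT against 0.808, 1.20 and 1.58 in KO, with means of 0.722 ± 0.074 and 1.20 ± 0.388 (SD, n = 3 each). Reads of Tgfb2 for each read of Tgfb3 were 0.547, 0.688 and 0.778 in WT and 0.472, 0.442 and 0.356 in KO. Every KO library therefore carried less Tgfb2 for its Tgfb1 and its Tgfb3 than every WT library, though WT replicate 2 and KO replicate 1 lay close for Tgfb1, at 0.776 and 0.808. Per length, Tgfb2 made up 20.6%, 22.8% and 24.6% of the ligand messages in WT and 18.0%, 16.0% and 13.1% in KO, while Tgfb3 made up 54.1% to 64.4% in WT and 61.9% to 65.3% in KO. These proportions were singled out after the values were seen and were not tested. Of the 45 ratios that can be formed from pairs of the 10 genes, 5 or 11.1% did not overlap between KO and WT, near the 9.07% of all ratios of 2 tested genes, so the count is not a result about the family. The other 3 were the ratios of Tgfb2, Tgfb3 and Tgfbr2 to Ltbp4, lower in KO.

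**Figure D2:**
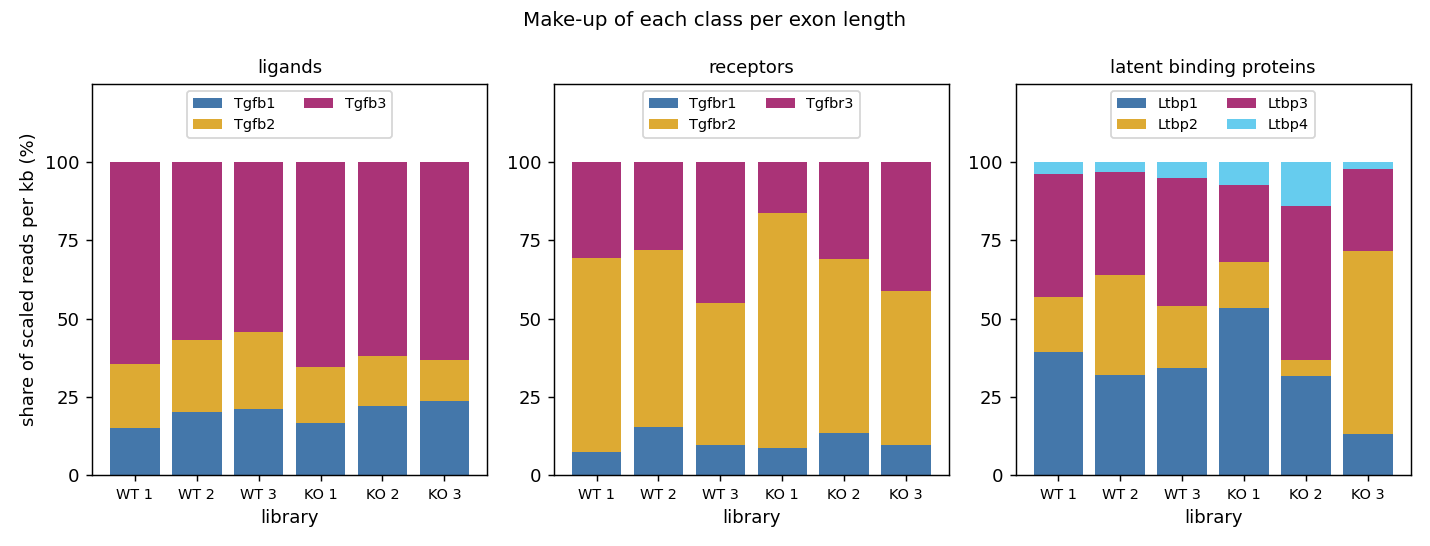
Share (%) of scaled reads per kb of exon within the ligands, the receptors and the LTBPs, a stacked bar for each library. The Tgfb2 segment is 20.6% to 24.6% in WT and 13.1% to 18.0% in KO, and the LTBP panel shows Ltbp2 at 5.00% in KO replicate 2 and 58.4% in KO replicate 3.

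The receptor genes lay close between genotypes once libraries of the same number were set side by side. Tgfbr1, the type I receptor kinase that phosphorylates SMAD2 and SMAD3, had 1315, 1752 and 755 scaled reads in WT and 1339, 1816 and 797 in KO. The KO values were 1.02, 1.04 and 1.06 times the WT values of the same number, while the libraries as a whole spanned 2.41-fold. The log2 fold change was 0.05 (SE 0.41, interval -0.91 to 1.01). Tgfbr2, the type II receptor that binds ligand first, had 13399, 7975 and 4345 in WT and 14604, 9371 and 5159 in KO, or 1.09, 1.17 and 1.19 times the WT library of the same number. Its log2 fold change was 0.20 (SE 0.52, interval -1.02 to 1.42). With the replicate number as a block, the SE fell from 0.41 to 0.17 for Tgfbr1 and from 0.52 to 0.17 for Tgfbr2, and the adjusted p values in limma were 0.951 and 0.790. Tgfbr3, which encodes betaglycan, was the exception. It had 5298, 3184 and 3466 in WT and 2553, 4149 and 3423 in KO, so that replicate 1 was the highest library in WT and the lowest in KO. The log2 fold change was -0.23 (SE 0.28, interval -0.89 to 0.43).

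Ltbp4, a binding protein also needed for elastic fibre assembly, had the largest difference of the 10 genes. It had 2175, 1327 and 880 scaled reads in WT and 4485, 4080 and 1077 in KO, a mean of 1461 ± 658 against 3214 ± 1861 (SD, n = 3 each). KO replicates 1 and 2 stood above every WT library, and KO replicate 3 lay inside the WT range. The log2 fold change was 0.98 (SE 0.61, interval -0.48 to 2.45), with an adjusted p of 0.999 in limma, and 5.78% of all genes had a larger absolute value. KO was 2.06, 3.07 and 1.22 times WT in the pairs of replicates 1, 2 and 3. By exact permutation of the libraries, two-sided, p was 0.3, and the smallest p that 3 libraries against 3 allow is 0.1. With the replicate block the SE was 0.28 and the unadjusted limma p 0.0127, a level that 7.42% of all genes reached under the block, and its adjusted p in limma was 0.531. In the authors' deposited table Ltbp4 had a log2 ratio of 1.14, a p of 0.0437 and an FDR of 0.902. It was the only one of the 10 genes with a p under 0.05 there, against 5.3% of all genes in the authors' deposited table, and none of the 10 had an FDR under 0.05, against 0.525%. Without KO replicate 3 the log2 fold change in limma was 1.65, without KO replicate 1 it was 0.62, and without WT replicate 3 it was 0.67. Of the 6 fibroblast markers 2, Dcn and Pi16, likewise had KO replicates 1 and 2 above the other 4 libraries, and the other 4 markers did not. The part of such cells in the Ltbp4 values was not tested, and in bulk RNA fewer cells of a type cannot be told from less RNA per cell.

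Ltbp1, the binding protein first found in the large latent complex, had 38008, 21352 and 9583 in WT and 52969, 15232 and 10594 in KO. Its libraries spanned 5.53-fold, yet the log2 fold change was 0.05 (SE 0.73, interval -1.71 to 1.80). Ltbp3, which binds latent TGF-beta and is needed for normal bone growth, had 32346, 18539 and 9739 in WT and 20669, 20089 and 17871 in KO. The KO libraries lay close together (SD 1477) inside a wide WT range (SD 11396), and the log2 fold change was 0.12 (SE 0.42, interval -0.88 to 1.11). Ltbp2, which binds fibrillin but not latent TGF-beta, was the most variable of the 10, at 12941, 16463 and 4247 in WT and 11098, 1840 and 35998 in KO. KO replicates 2 and 3 held the lowest and the highest value of all 6 libraries, 19.6-fold apart. The KO value was 0.858, 0.112 and 8.48 times the WT value of the same number. The fitted log2 fold change of -0.10 (SE 1.10, interval -2.75 to 2.55) averages pairs that lay on opposite sides of 0. The authors' deposited table has a log2 ratio of 0.54, the other sign. The arithmetic means, 11217 in WT and 16312 in KO, differ in that direction, whereas the limma fit averages log values. Ltbp3 also had the other sign in the authors' deposited table, at -0.048.

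**Figure D3:**
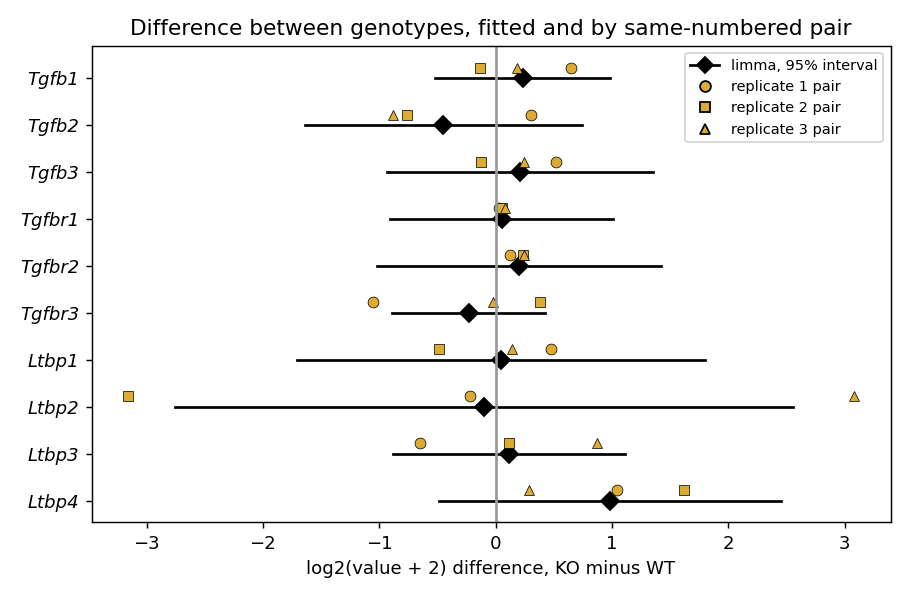
Difference between KO and WT in log2(value + 2) for the 10 genes: black diamonds with lines are the limma estimate and its 95% interval, and yellow symbols are the differences within same-numbered pairs. All 10 intervals include 0, the 3 pairs of Tgfbr1 and Tgfbr2 lie almost on top of each other, and those of Ltbp2 lie on both sides at -3.16 and 3.08.

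For most of the 10 genes the replicate number parted the libraries far more than the genotype did. Split by sums of squares on the log2 scale, it held 99.7% of the variation of Tgfbr1, 97.4% of Tgfbr2, 95.1% of Ltbp1 and 92.2% of Tgfb3, and genotype held 0.28%, 2.42%, 0.06% and 3.02%. The median over the 10 genes was 72.7% for the number and 2.72% for genotype, beside 54.9% and 10.3% over all genes tested. The number has more levels than genotype, so its share is expected to be larger even without any effect. Only 0.0485% of genes had a larger share for the number than Tgfbr1. Tgfbr3 (1.60%) and Ltbp2 (15.2%) lay at the other end, with most of their variation in neither term. For 7 of the 10 genes (Tgfb1, Tgfb3, Tgfbr1, Tgfbr2, Ltbp1, Ltbp3 and Ltbp4) both replicate 3 libraries lay below the other 4, a pattern that 16.7% of all genes had. These are the 2 libraries in which 3 of the 7 smooth muscle markers, Acta2, Tagln and Cnn1, were highest. They also had the lowest shares of mitochondrially encoded transcripts, 1.82% in WT and 2.37% in KO against 4.24% to 7.13% in the other 4. Their estimated depth was the highest, 45400000 reads in WT and 47900000 in KO against 31100000 to 35900000 in the other 4. No label says what a replicate number marks, the pattern was noticed in the data, and the part of any of these features in it was not tested. The sign of KO minus WT was the same in all 3 pairs for 3 of the 10 genes (Tgfbr1, Tgfbr2 and Ltbp4, each higher in KO), where 30.7% of all genes had one sign in all pairs and 15.7% were higher in KO in all. Without both replicate 3 libraries, again no gene passed in limma, and Ltbp4 had a log2 fold change of 1.33 with an unadjusted limma p of 0.00598, while 766 genes were under 0.05.

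**Figure D4:**
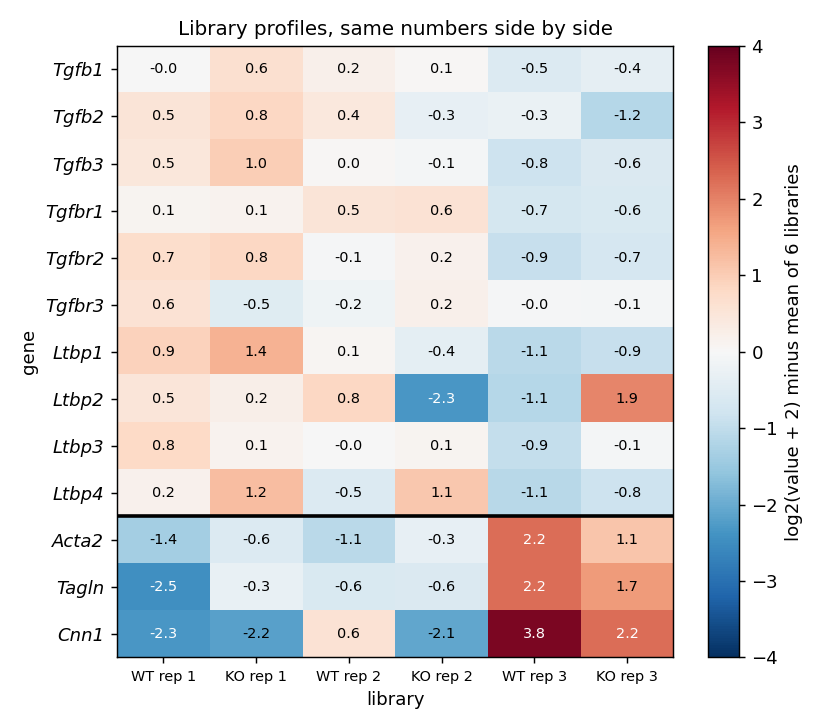
Each cell is a gene's log2(value + 2) in a library minus its mean over the 6 libraries, with same-numbered WT and KO libraries side by side and 3 of the 7 smooth muscle markers below the line. Most rows for the 10 genes are blue in both replicate 3 columns, where Acta2, Tagln and Cnn1 are red. Ltbp2 and Tgfbr3 do not follow the number.

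Genes with the most similar library profile were sought for the ligand, the receptor and the LTBP with the largest difference, by the root-mean-square distance of mean-centred log2 values over the 6 libraries, among 8572 genes. For Tgfb2 these were Dpp7 (0.213), Smarca2 (0.216) and Tbce (0.219), against a median distance of 0.711. Nearest to Tgfbr3 were Plekhm3 (0.128), Tmem131 (0.129) and Bid (0.136), with a median of 0.453, and nearest to Ltbp4 were Npy1r (0.285), Lrrn4cl (0.294) and Add3 (0.296), with a median of 0.953. The 6 points share libraries, and the distances are descriptive.

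Of the genes that activate or store latent TGF-beta, 14 of 18 had values, 7 above and 7 below 0, with a median log2 fold change of 0.06 and none past an adjusted p of 0.05 in limma. Thbs1, thrombospondin 1, which can release TGF-beta from its propeptide, had 98848, 109809 and 114641 in WT and 203362, 184388 and 147717 in KO. All 3 KO libraries lay above all 3 WT libraries, as for 3.91% of all genes, and the log2 fold change was 0.72 (SE 0.28) with an unadjusted limma p of 0.0353, a level that 1.46% of all genes reached as higher in KO. Plau, the plasminogen activator urokinase, had 1197, 926 and 649 in WT and 468, 566 and 504 in KO. There every KO library was below every WT library, as for 4.51% of all genes, at a log2 fold change of -0.81 (SE 0.27) and an unadjusted limma p of 0.0208, which 2.15% of all genes reached as lower. Fn1 (fibronectin), with 230072 to 396642 in WT and 271424 to 624619 in KO, and Itgb1 (the integrin beta 1 chain), with 44286 to 76539 and 45501 to 76044, overlapped between genotypes.

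All 10 co-receptors and related receptors had values, 4 above and 6 below 0, with a median of -0.07 and none past the threshold in limma. Nrp1, neuropilin 1, which can bind TGF-beta, had 1390, 2209 and 1234 in WT and 3052, 3018 and 2007 in KO. It was higher in 3 of 3 pairs, as were 15.7% of all genes, though WT replicate 2 lay just above KO replicate 3. The log2 fold change was 0.76 (SE 0.29), with an unadjusted limma p of 0.0343, a level that 1.46% of all genes reached as higher in KO. Cd109, a GPI-anchored inhibitor of the type I receptor, had 3777, 7489 and 3777 in WT and 5990, 14483 and 6309 in KO, higher in every pair, with an unadjusted limma p of 0.11 and, with the replicate block, of 0.00416 (adjusted 0.395), where 7.42% of all genes were under 0.05. Eng (endoglin) had 15818, 3315 and 134 in WT and 7171, 8863 and 15103 in KO. WT replicate 3 set its log2 fold change of 2.36 (SE 1.62), which was 0.45 without that library. Neo1 (neogenin) had 7819 to 14597 in WT and 6811 to 12411 in KO.

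The 15 SMAD transducers and regulators lay near 0, with 4 above and 11 below, a median of -0.12, none past the threshold in limma and none at an unadjusted p under 0.05. The most abundant were Ski, a SMAD co-repressor (log2 fold change -0.15 with SE 0.20), Pmepa1, a feedback inhibitor that SMADs induce (-0.16, SE 0.31), and Strap, a receptor-associated scaffold (-0.08, SE 0.28). Of the 25 transcriptional targets 24 had values, 15 above and 9 below 0, with a median of 0.11, none past the threshold in limma and none at an unadjusted p under 0.05. Col1a1, the main fibrillar collagen chain, had 117469, 96639 and 100354 in WT and 165479, 119121 and 194742 in KO. All 3 KO libraries were above all 3 WT libraries, as for 3.91% of all genes. The log2 fold change was 0.58 (SE 0.30), with an unadjusted limma p of 0.0936. Lox, the collagen and elastin crosslinking enzyme, had 69492 to 130334 in WT and 54596 to 139578 in KO. Ccn2, a classical SMAD-responsive gene added after its values were seen, had 46547, 29556 and 3523 in WT and 65759, 26180 and 8854 in KO. Both replicate 3 libraries were its lowest, a pattern that 16.7% of all genes had. The targets did not share one order of libraries. Sphk1 and Bhlhe40 were also lowest in both replicate 3 libraries, while Acta2, Tagln, Cnn1, Adam12, Timp1 and Postn were highest there.

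**Figure D5:**
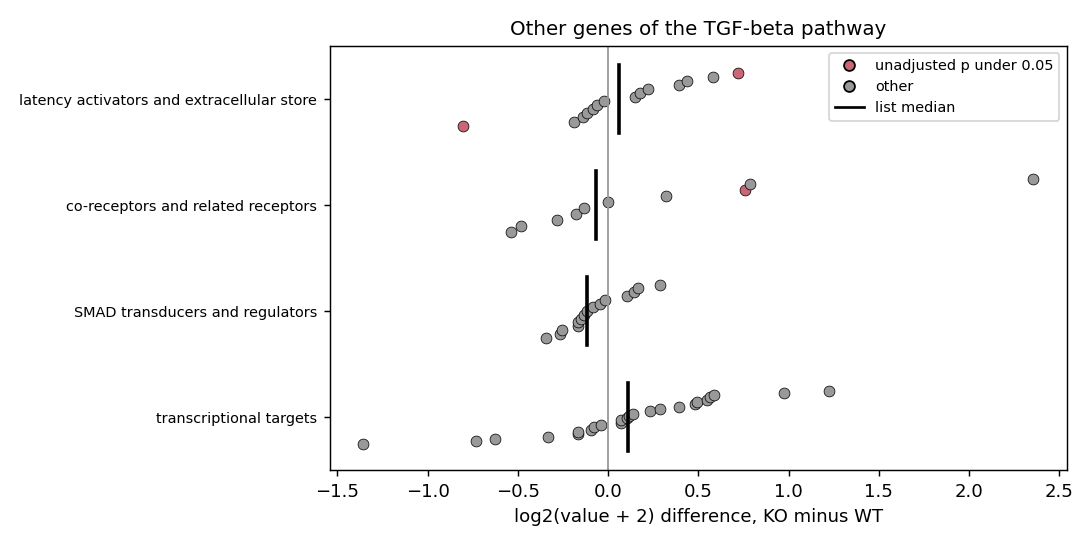
Log2(value + 2) difference, KO minus WT, of each tested gene in 4 lists of the TGF-beta pathway, with a black line at each list's median and red points for an unadjusted limma p under 0.05. The medians lie between -0.12 and 0.11, and the 3 red points are Thbs1, Nrp1 and Plau.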

How the data were processed

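Stranded, poly(A)-selected paired-end libraries were made, per the labels' protocols. STAR, Partek, DESeq2, GRCm39 and mm39 are named, without roles, per the submitters' processing notes. The sources used here do not state the alignment and counting settings, strand use included. The deposited per-library values are a scaled signal, estimated reads divided by a library factor, although the table is named as raw counts: 1 read was worth 0.711 to 1.18, and 76.0% to 92.8% of the low values (at most 50 reads) came within 0.05 of whole reads, too few to recover counts. The authors' deposited comparison table gives p-values with FDR and a log2 ratio, KO over WT per the file headers. Gene starts match GENCODE M21 (GRCm38) for 12341 of 12385 genes, so exon lengths are from M21. Antisense genes overlap exons of Tgfb2, Tgfb3, Ltbp2 and Ltbp3, so these values are uncertain if strand was ignored. Gm43422 overlaps 297 bases of Tgfbr3 exon on the same strand, where use of strand would not part the reads.

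limma 3.58.1 (R 4.3.3) was fitted to log2(value + 2) for all genes with at least 10 in 3 libraries, by genotype alone with trended, robust variance priors. It was also run on simulated data with independent genes and an SD of 0.26 for every gene, the median under the replicate block. The median SD of the fit by genotype alone was 0.36, so that run does not show what the fit can detect here. Tests were two-sided, and a gene passed at a Benjamini-Hochberg adjusted p under 0.05. The 10 genes, pathway lists and markers were chosen with earlier results of these data known. Pathway genes were named for an unadjusted p under 0.05 or for being among the 3 most abundant in a list. WT and KO libraries of one number shared deviations from the group mean (correlations across genes of 0.43, 0.15 and 0.39). For WT and KO libraries of unlike numbers these correlations were -0.40 to 0.022. Deviations cancel out within a group, so these low values follow from the same-number ones and are not separate evidence. From the same-number correlations, numbers were taken to pair libraries, though no label says so, and the replicate block was run as an alternative. Because the pairing was read from these same values, a smaller SE under the block is not separate support for it. Nothing in the labels ties a replicate to a separate animal by name, so p-values measure the spread between these cultures.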

Additional observations from a re-analysis of the deposited data

How the results depend on the processing

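The 21 alternatives were other scalings, filters, pseudocounts, the second deposited table, limma-voom, other priors, library quality weights, the replicate block, leaving out each library and, added after the data were seen, leaving out both replicate 3 libraries. Means per kb without each library were likewise added. None of the 10 genes passed under any of them. Over all genes limma called 0 (447 at an unadjusted p under 0.05), limma-voom 0 (399), the replicate block 0 (917), the weights 30, the weights with the block 5 and leaving out 1 library 0 to 1, the last without KO replicate 1. Lrrc8a passed with the weights (log2 fold change -1.62, adjusted p 0.045 in limma, the lowest of its 21 alternatives). The block changed no call. With the weights the signs turned of Tgfbr1 (-0.13), Tgfbr3 (0.10), Ltbp1 (-0.022) and Ski (0.020), with the weights and the block those of Ltbp1 (-0.17) and Itgb1 (0.061), with quantile normalization that of Lox (-0.000888), and without replicate 3 those of Ltbp1 (-0.00421), Ltbp3 (-0.27) and Itgb1 (0.20). The weights also moved Ltbp2 to -1.84 (-1.58 with the block), Pmepa1 to -0.75 and Ltbp4 to 1.43 (unadjusted limma p 0.0037, adjusted 0.132). The cause was not tested.

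Leaving out 1 library in turn, or both replicate 3 libraries, gave log2 fold changes of -0.030 to 0.47 for Tgfb1, -0.97 to 0.016 for Tgfb2, -0.23 to 0.56 for Tgfb3, -0.28 to 0.37 for Tgfbr1, -0.22 to 0.60 for Tgfbr2, -0.39 to -0.0052 for Tgfbr3, -0.64 to 0.52 for Ltbp1, -1.69 to 1.05 for Ltbp2, -0.33 to 0.54 for Ltbp3 and 0.62 to 1.65 for Ltbp4. Those of Ccn2 were -0.58 to 1.29, of Itgb1 -0.35 to 0.20, of Lox -0.17 to 0.73, of Neo1 -0.39 to 0.15, of Pmepa1 -0.40 to 0.10 and of Strap -0.29 to 0.12. The co-receptor median ran from -0.22 to 0.33. With the longest transcript as length, Tgfb1 made up 30.5% of ligand messages in WT and 33.4% in KO, and Tgfb3 48.4% and 52.0%.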
